A study of Mus musculus with 33 samples.

Results

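Surrounding liver of Sav1 -/- mice was set against liver of Sav1 flox mice, gene by gene, on Illumina bead arrays of the mouse genome. The members were chosen by their labels alone: 7 arrays of Sav1 -/- surrounding liver and 3 arrays of Sav1 flox normal liver, 10 of the 33 arrays in the series. The flox livers carry the floxed Sav1 allele, are labelled as normal liver and serve as the control of the same line. Other arrays were Sav1 -/- hepatocellular carcinomas (n = 11), Mst1/2 -/- surrounding liver (n = 3) and liver of wild-type mice (n = 2). Mst1/2 -/- hepatocellular carcinomas (n = 4) and Mst1/2 flox livers (n = 3) made up the rest. Levels of these arrays are given only where stated. All 33 arrays entered the normalization, the choice of probes and the single fit behind the main tests. Total RNA of whole tissue was measured, 1 array per sample. The labels give no age, sex, Cre line or promoter, and do not say whether the arrays of a group came from separate animals or which surrounding liver adjoined which tumour. Where replicates are not separate animals, the p-values reflect technical spread.

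Sav1 is the scaffold protein that holds the kinases Mst1 and Mst2 (genes Stk4 and Stk3) together at the top of the Hippo pathway. In liver this kinase cascade restrains the transcriptional coactivators Yap1 and Taz (gene Wwtr1), which work through the Tead factors and drive hepatocyte growth and a progenitor or biliary gene programme. Loss of Sav1 or of both kinases in mouse liver is known to cause overgrowth and, later, liver tumours.

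Levels are log2 signals after background correction and quantile normalization, and 1 unit is a 2-fold difference. A gene is said to have risen or fallen where the adjusted p of limma's moderated test, over all 14018 genes tested, was below 0.05. By that rule 1482 genes (10.6%) changed in surrounding liver against flox liver, 712 upward (5.08%) and 770 downward (5.49%). At an unadjusted p below 0.05 there were 3972 genes. The rises were the larger changes: 430 genes rose and 149 fell at least 2-fold, and 109 rose and 23 fell at least 4-fold. The 7 and 3 arrays did not overlap for 2303 genes (16.4%), of which 1131 (8.07%) also passed the test. The median difference over all genes was 0.02. Scaling each array to a common median in place of quantile normalization moved this median to 0.21, and 92.3% of the changed genes were then higher, against 48.0% with quantile normalization. The balance of rises and falls therefore depends on the scaling, and the differences below are relative to the median gene under quantile normalization.

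Array groups and single livers bear on these counts. Surrounding livers had 40.3% to 52.3% of probes above background and flox livers 35.1% to 39.0%, with no overlap. Median signals ran from 79.0 to 112 units in surrounding livers and from 84.2 to 93.0 units in flox livers. Background probes sorted the arrays into technical sets that the labels do not name: surrounding livers 1, 2 and 3 lay in set A with all 3 flox livers, and surrounding livers 4 to 7 in set C, which held no flox liver. Within set A, 3 surrounding against 3 flox livers, 61 genes passed the test (53 higher, 8 lower), and all 1482 genes had the same sign there, although the arrays are shared between both comparisons. The median size of their difference was 0.73 within set A and 0.85 over all arrays. With the set as a block 562 genes passed. Flox liver 2 stood apart from flox livers 1 and 3 (ribosomal protein genes had a median of -0.81 against the flox mean, and 0.49 and 0.36 in the other flox livers), and without it 326 genes passed. Without flox liver 3 the count was 774. Leaving out surrounding livers 2 and 5, which stood highest for several gene lists below, left 627.

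Liver genes stood at a high level. Transthyretin (Ttr), a plasma protein of hepatocytes, ran from 15.06 to 15.45 in surrounding livers and from 15.54 to 15.60 in flox livers, near the highest level on these 10 arrays (15.85). None of the 28 tested hepatocyte identity and plasma protein genes passed the test (median -0.19), and 5 fell with median scaling. Of the 8 hepatocyte markers 7 were tested and 0 passed, at a summed level (the log2 of their added signals) of 16.8 to 17.1 in surrounding livers and 17.1 to 17.2 in flox livers. The probe for albumin was dim in all 10 arrays (7.59 to 9.24). In bulk tissue a change in the number of cells of a type cannot be told apart from a change in RNA per cell.

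The targeted gene was measured first. Sav1 itself stood at 8.77, 9.16 and 9.56 (lowest, median, highest) in surrounding livers, against 9.42, 9.57 and 8.93 in flox livers. The groups overlapped, and the difference of -0.15 ± 0.25 (SE) did not pass the test (adjusted p = 0.733, limma). No source used here says whether the probe lies in the deleted part of the gene, so it does not check the knockout. Stk4 (Mst1) differed by -0.03 ± 0.26 (adjusted p = 0.954), and Stk3 (Mst2) has no probe with a gene name here.

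The largest changes are given first for genes whose groups did not overlap and that were detected over background in both groups, on 1 array or more. The 10 largest rises of this kind were led by Spink1, Lcn2 and H2-Aa. Spink1, a secreted trypsin inhibitor that is also a marker of liver tumours, ran from 10.05 through a median of 12.29 to 13.28 in surrounding livers, against 6.57, 6.46 and 6.85 in flox livers, where it was above background on 1 of 3 arrays. Lcn2 (lipocalin 2), an iron-siderophore-binding acute-phase protein made by hepatocytes and neutrophils, ran from 12.05 through 13.82 to 15.67, against 8.87, 7.82 and 8.81. H2-Aa, the alpha chain of an MHC class II molecule, ran from 11.12 through 12.66 to 14.12, against 6.74, 7.68 and 8.88. No surrounding liver reached down to a flox liver in any of the 3. The differences were 5.34 ± 1.03 for Spink1 (adjusted p = 0.00191; no fold is given, since its flox signal lay mostly at background), 5.25 ± 0.68 for Lcn2 (38.1-fold, adjusted p = 2.37e-05) and 4.92 ± 0.63 for H2-Aa (30.4-fold, adjusted p = 1.87e-05, all limma, SE). The other 7 were H2-Eb1, the neutrophil calcium-binding proteins S100a8 and S100a9, the zinc-binding metallothionein Mt1, the interferon-induced Ifi27l2a, the T-cell chemokine Ccl5 and the lectin Sftpd (surfactant protein D), at 3.27 to 4.12 log2 units. Of the 10, Mt1, Ccl5 and Sftpd no longer passed without flox liver 2 (adjusted p 0.0697, 0.0707 and 0.0706). Mt1 was 14.26, 9.20 and 11.26 in the flox livers, the widest spread among the 10, against 14.87 to 15.71 in surrounding livers.

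**Figure D1:**
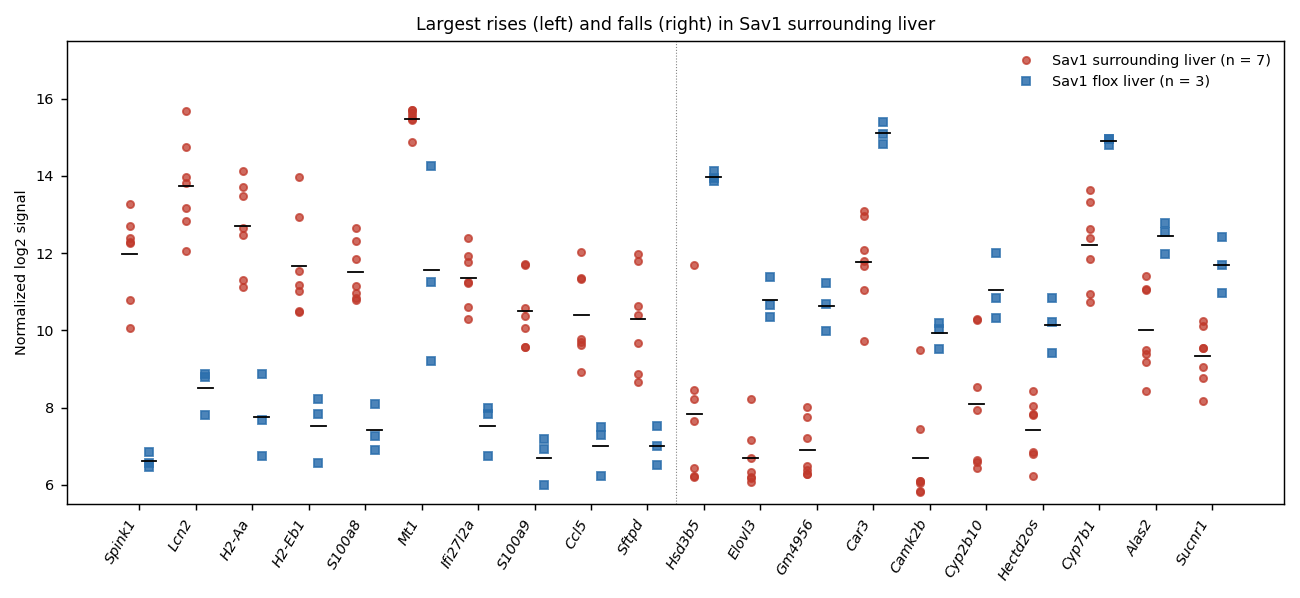
Normalized log2 signal (vertical axis) of the 10 largest rises and 10 largest falls among genes with no overlap between groups and detected over background in both groups, in each of the 7 Sav1 surrounding livers (circles, left) and 3 Sav1 flox livers (squares, right); horizontal lines are group means. Every surrounding liver lies beyond every flox liver for each gene, with Spink1 5.34 units higher and Hsd3b5 6.14 units lower on average.

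The 10 largest falls, chosen in the same way, are given by 3 liver enzymes and then by the others. Hsd3b5, a hydroxysteroid dehydrogenase found at high level in liver of male mice, ran from 6.20 through a median of 7.66 to 11.69 in surrounding livers, against 14.13, 13.87 and 13.94 in flox livers, and was above background on 5 of 7 surrounding arrays. Elovl3, a fatty acid elongase, ran from 6.08 through 6.34 to 8.23 and was above background on 3 of 7 surrounding arrays, against 10.34, 10.67 and 11.38. Car3, carbonic anhydrase 3, ran from 9.74 through 11.81 to 13.10, against 14.84, 15.40 and 15.08. The groups did not overlap, and surrounding liver 6 kept the highest Hsd3b5 and Elovl3 levels of the 7. Hsd3b5 fell by 6.14 on the log2 scale (SE 0.84, adjusted p = 4.37e-05), Elovl3 fell by 4.10 (SE 0.40, adjusted p = 3.43e-07) and Car3 fell by 3.33 (SE 0.78, adjusted p = 0.00788, limma). For Hsd3b5 and Elovl3 these differences are taken partly against background signal, and no fold is given.

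The other 7 falls were between -2.34 and -3.72 log2 units. They included Cyp7b1, an oxysterol hydroxylase of bile acid synthesis (-2.69), Cyp2b10, a cytochrome P450 induced through the receptor CAR (-2.95), the succinate receptor Sucnr1 (-2.34), the erythroid haem synthesis enzyme Alas2 (-2.44), the kinase subunit Camk2b (-3.23, above background on 2 of 7 surrounding arrays), Gm4956 (-3.72, on 4 of 7) and the long noncoding RNA Hectd2os. With flox liver 2 left out, Car3, Cyp2b10, Alas2 and Sucnr1 missed the threshold (adjusted p 0.0621, 0.0541, 0.131 and 0.134). Against the wild-type livers in place of flox livers Camk2b (0.65) and Alas2 (0.34) had the opposite sign, and neither passed. Camk2b averaged 6.70 ± 1.36 in surrounding livers (SD, n = 7), 9.92 ± 0.35 in flox livers (n = 3) and 6.04 in the wild-type livers.

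Some genes crossed the background, but detection was unequal. Surrounding livers had 40.3% to 52.3% of probes above background and flox livers 35.1% to 39.0%. The 2 counts that follow are therefore not read as a balance of genes switched on or off. Among the 14018 genes tested, 88 changed genes were above background on all 7 surrounding arrays and on none of the 3 flox arrays, and 4 showed the reverse. For these only a lower limit of the fold can be given, from the mean of surrounding livers against the lowest signal that counts as above background (or the dim probe's own signal where higher) in flox livers. The calcium-binding protein Cib3 was at least 14.7-fold higher, the granulocyte protease Prtn3 at least 7.96-fold, the endothelial proteoglycan Esm1 at least 5.89-fold and the organic anion transporter Slc22a26 at least 4.54-fold. The fits gave adjusted p of 0.0116, 0.00458, 0.0131 and 0.0043 (limma). Esm1 ran from 7.09 in surrounding liver 7 to 12.36 in surrounding liver 5. The genes above background in flox liver only were dim there as well: Htra4 was at least 2.04-fold lower, Serpina9 at least 1.92-fold, Tacc2 at least 1.35-fold and Adamts17 at least 1.24-fold. Against the wild-type livers Tacc2 had the opposite sign (0.12, adjusted p = 0.473). Several genes named below also rest on partial detection: Mt2, Sox4, Mzb1 and Clec1b were above background on all 7 surrounding but 1 of 3 flox arrays, Cyp2b13 on 2 of 7 and 2 of 3, and Npas2 on 1 of 7 and 2 of 3.

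Lists of genes with a common role were then described by their members, beside the 10.6% of all genes that changed and the median of 0.02. Of 18 core Hippo pathway members 2 rose and 0 fell, with a median of 0.01. Tead1, a DNA-binding partner of Yap1 and Taz, ran from 8.61 through 8.88 to 9.86 in surrounding livers, against 7.52, 8.33 and 7.70 in flox livers (1.21 ± 0.29, adjusted p = 0.00922, limma). Wwtr1, which encodes Taz, ran from 10.20 through 11.20 to 11.82, against 9.80, 10.05 and 9.55 (1.15 ± 0.33, adjusted p = 0.0228). Neither gene overlapped between the groups. When flox liver 2 was dropped, 1 member rose and 1 fell.

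Of 28 tested YAP/TAZ target genes 6 rose and 0 fell, with a median of 0.74, and 25 had a positive difference. Axl, a receptor tyrosine kinase, ran from 10.72 through 11.23 to 12.77 in surrounding livers, against 10.16, 9.65 and 9.60 in flox livers (1.70 ± 0.35, adjusted p = 0.00341). Gpc3 (glypican 3), an oncofetal cell-surface proteoglycan, ran from 7.85 through 9.25 to 11.22, against 6.82, 6.98 and 6.72 (2.41 ± 0.57, adjusted p = 0.00842). Ccn2 (connective tissue growth factor), a matricellular protein and a standard YAP readout, ran from 11.32 through 11.63 to 13.64, against 9.94, 10.63 and 10.96 (1.70 ± 0.46, adjusted p = 0.0176, limma). These 3 genes did not overlap between groups. Gadd45b, a stress-induced regulator of growth, was above background on all 7 surrounding and on 0 of 3 flox arrays and was at least 1.81-fold higher. The list medians of the 7 surrounding livers lay between 0.35 and 0.79 above the flox mean. Without flox liver 2 the count of rises was 2, without surrounding livers 2 and 5 it was 3, and with the array set as a block 2, and within set A it was 0.

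Fetal, tumour-associated and biliary genes showed a wider range. Of 19 fetal and tumour-associated liver genes 5 rose and 0 fell (median 1.32). Beside Spink1 and Gpc3 these were the secreted protease inhibitor Slpi (2.75 ± 0.67, adjusted p = 0.00999), the galectin Lgals3 (2.53 ± 0.71, adjusted p = 0.0216) and the tetraspanin Tspan8 (2.69 ± 0.77, adjusted p = 0.0254). Slpi overlapped between the groups, at 8.75 to 12.56 in surrounding livers against 8.93, 7.45 and 7.39 in flox livers. Of 15 biliary and progenitor genes 3 rose and 0 fell (median 0.94), and all 15 differences were positive. Bicc1, an RNA-binding protein of epithelial tubules, ran from 9.78 through 10.45 to 12.31, against 8.16, 8.41 and 8.18 (2.50 ± 0.46, adjusted p = 0.00125, limma). Tm4sf4, a tetraspanin-like protein, rose by 1.72 ± 0.36 and the transcription factor Sox4 by 1.82 ± 0.42 (adjusted p 0.00391 and 0.00786). Surrounding liver 5 had the highest list medians (2.54 for the fetal and 1.98 for the biliary list) and surrounding liver 2 the next (1.65 and 1.35); the other 5 lay between 0.54 and 1.12 for the fetal list and between 0.48 and 1.1 for the biliary list. When flox liver 2 was dropped, the counts were 2 and 2, and without surrounding livers 2 and 5 they were 2 and 3. With the array set as a block 1 fetal and 3 biliary genes rose, and within set A 2 and 1.

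**Figure D2:**
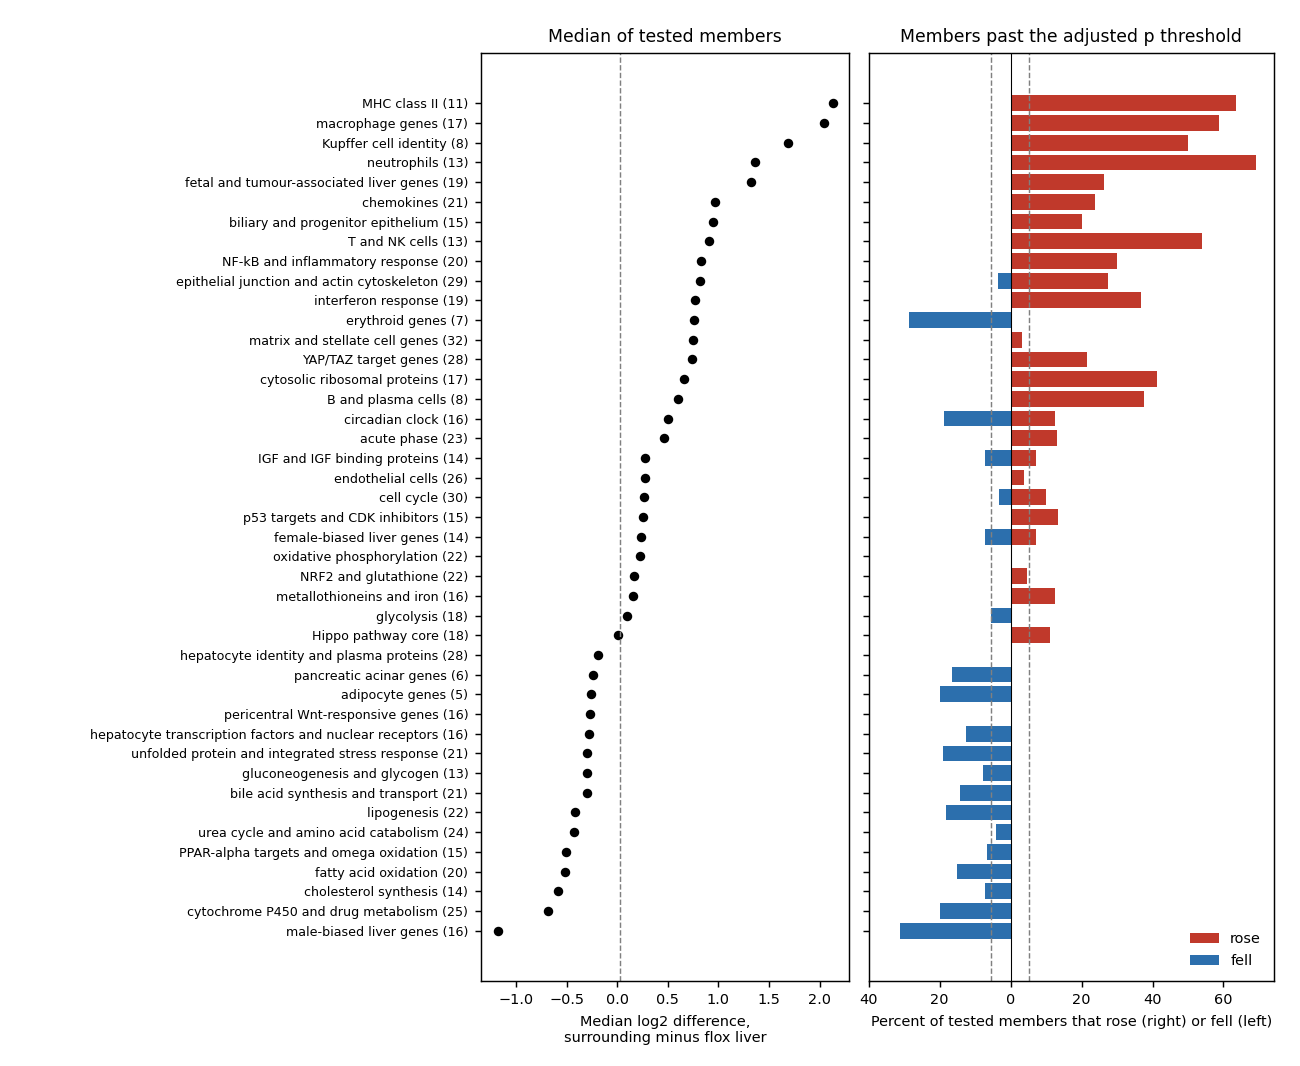
Left, median log2 difference (horizontal axis, surrounding minus flox liver) over the tested members of each gene list other than the targeted and sex chromosome genes; right, percent of tested members that rose (red, to the right) or fell (blue, to the left). Dashed lines mark the median and the percentages over all 14018 genes, and numbers in brackets are tested members. MHC class II genes stand highest at 2.13 and male-biased liver genes lowest at -1.18.

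Macrophage genes were higher in all members. Of 17 tested genes 10 rose and 0 fell, with a median of 2.04, and all 17 differences were positive. Mpeg1 (perforin-2), a pore-forming protein of macrophages, ran from 11.86 through 12.92 to 13.54 in surrounding livers, against 10.51, 9.88 and 9.96 in flox livers (2.73 ± 0.36, adjusted p = 2.37e-05). Lyz2, the lysozyme of myeloid cells, ran from 11.39 through 12.69 to 13.69, against 10.24, 9.14 and 9.39 (3.11 ± 0.65, adjusted p = 0.00387). C1qa, a subunit of complement C1q made by macrophages, ran from 9.54 through 10.00 to 11.65, against 8.68, 7.49 and 8.22 (2.09 ± 0.45, adjusted p = 0.0043, limma). None of the 3 overlapped. The protease Ctss (cathepsin S), which also trims the invariant chain of MHC class II, rose by 3.21 ± 0.71 (9.22-fold, adjusted p = 0.00578). The list median was 3.59 in surrounding liver 2 and 2.57 in surrounding liver 5, against 1.11 to 1.78 in the other 5. Counts of rises were 7 without surrounding livers 2 and 5, 8 with the array set as a block, 2 without flox liver 2 and 0 within set A.

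Kupffer cells, the resident macrophages of liver, could be followed by their own markers. Of 8 tested identity genes 4 rose and 0 fell (median 1.68). Cd163, a scavenger receptor for haemoglobin, ran from 10.85 through 11.13 to 11.59 in surrounding livers, against 9.92, 8.23 and 8.47 in flox livers (2.28 ± 0.42, adjusted p = 0.00125). The folate receptor Folr2 rose by 1.74 ± 0.43 and the phosphatidylserine receptor Timd4 by 1.52 ± 0.38 (adjusted p 0.0111 and 0.0123, limma), without overlap. The scavenger receptor Marco rose by 1.86 ± 0.45 (adjusted p = 0.00993) but overlapped, since surrounding liver 3 stood at 6.46 and the flox livers at 6.84, 7.04 and 6.59. The level of Clec4f, a lectin found in mouse only on Kupffer cells, was 11.20 to 12.21 in surrounding livers, against 10.29, 9.78 and 9.94 in flox livers, and its difference of 1.63 ± 0.68 did not pass (adjusted p = 0.115). The groups did not overlap, and within set A Clec4f passed (1.57 ± 0.20, adjusted p = 0.034). A dimmer Clec4f probe, not used for the gene, rose by 1.08 ± 0.29 when probes were fitted singly (adjusted p = 0.0159, limma). The complement receptor Vsig4 did not pass (1.95 ± 0.88, adjusted p = 0.142). Cdh5 on this list is better known as an endothelial cadherin. With flox liver 2 left out, the count of rises was 2, as it was with the set as a block, and within set A it was 1. The summed level of the 4 tested defining markers was 13.1 to 14.4 in surrounding livers and 11.5 to 12.1 in flox livers.

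MHC class II molecules present peptides to helper T cells. Of the 11 members of their list 7 rose and 0 fell (median 2.13). The 7 include the protease Ctss, which was also counted among the macrophage genes, so the 2 lists are not independent. Besides H2-Aa, H2-Eb1 ran from 10.48 through 11.19 to 13.96 in surrounding livers, against 6.56, 7.83 and 8.22 in flox livers (4.12 ± 0.65, adjusted p = 0.000239, limma). H2-Ab1, the partner beta chain of H2-Aa, ran from 11.77 through 12.56 to 15.03, against 11.18, 9.01 and 10.39 (2.68 ± 0.61, adjusted p = 0.0069). Again no surrounding liver lay within the flox range. H2-DMb1, a subunit of the exchange factor that loads peptide, was named after its values were seen, for its promoter, and rose by 1.93 ± 0.50 (adjusted p = 0.0136). Medians for the list were 3.77 in surrounding liver 2 and 3.16 in surrounding liver 5, against 1.34 to 1.72 in the other 5. The count of rises was 5 without surrounding livers 2 and 5, 4 with the set as a block, 2 without flox liver 2 and 0 within set A.

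Class II promoters share 2 short elements, the X box, bound by the RFX complex, and the Y box, bound by NF-Y, on which the coactivator Ciita assembles. The promoters of 3 risen genes are shown because they make this shared layout visible. Each line holds the 100 bases before the RefSeq transcription start on GRCm38.p6, 5′ to 3′ on the gene's strand; H2-Aa lies at chr17:34287824-34287923 (minus strand), H2-Eb1 at chr17:34305767-34305866 (plus) and H2-DMb1 at chr17:34153091-34153190 (plus). Capitals mark the X box letters CTNGNAAC and the Y box core GATTGG on either strand.
H2-Aa: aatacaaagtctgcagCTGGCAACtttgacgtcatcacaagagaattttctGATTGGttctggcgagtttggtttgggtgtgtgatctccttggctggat
H2-Eb1: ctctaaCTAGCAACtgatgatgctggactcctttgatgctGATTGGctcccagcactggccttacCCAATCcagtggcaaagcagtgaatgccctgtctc
H2-DMb1: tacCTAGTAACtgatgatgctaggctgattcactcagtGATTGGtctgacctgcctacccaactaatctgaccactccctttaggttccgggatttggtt
In all 3 the X box letters lie upstream of the Y box core. Of the 8 list members with a promoter entry, 7 held the Y box core within 250 bases before the start, 4 held the X box letters and 4 both; Ctss held neither. Over all 32851 RefSeq promoters 14.6% held the first, 10.9% the second and 1.63% both. The letters were chosen after these promoters were read, and a match is a description of sequence only.

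Other white blood cell genes rose as well. Of 13 neutrophil genes 9 rose and 0 fell (median 1.36), led after Lcn2 by the granule enzyme Mpo, which was at least 2.65-fold higher and above background on all 7 surrounding and on 0 of 3 flox arrays (adjusted p = 0.000371), S100a9 (3.81 ± 0.62, adjusted p = 0.000409) and S100a8 (4.09 ± 0.69, adjusted p = 0.000563, limma). The 4 neutrophil markers summed to 11.4 to 13.4 in surrounding livers and 8.39 to 9.14 in flox livers. Of 13 T and NK cell genes 7 rose and 0 fell (median 0.91). Ccl5 ran from 8.93 through 9.77 to 12.04, against 7.28, 6.24 and 7.51. The surface protein Thy1 was at least 2.86-fold and the T-cell receptor complex chain Cd3d at least 2.04-fold higher (adjusted p 0.0123 and 0.0176), both above background on no flox array. Of 8 B and plasma cell genes 3 rose and 0 fell (median 0.60), including the plasma cell chaperone Mzb1 (1.71 ± 0.47, adjusted p = 0.0208). The count of T and NK cell rises was 0 without flox liver 2, 2 without flox liver 3 and 1 without surrounding livers 2 and 5. For neutrophils the counts were 5, 5 and 6, and for B and plasma cells 1, 1 and 1. Within set A 1 T and NK cell gene, 4 neutrophil genes and 0 B and plasma cell genes rose.

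Signalling genes of inflammation followed. Of 21 chemokines 5 rose and 0 fell (median 0.96, all 21 positive): Ccl6, Ccl5, Cx3cl1, Cxcl16 and Cxcl14, of which Ccl6 ran from 7.82 through 8.35 to 9.01 in surrounding livers against 7.09, 6.51 and 6.85 in flox livers (1.56 ± 0.30, adjusted p = 0.00195, limma). The chemokine median was 2.87 in surrounding liver 2 and 0.40 to 0.71 in the other 6. Of 19 interferon-response genes 7 rose and 0 fell (median 0.77). Irf7, the transcription factor that amplifies type I interferon, ran from 8.45 through 8.83 to 9.62, against 7.43, 7.29 and 7.24 (1.66 ± 0.31, adjusted p = 0.00163). Of 20 NF-kB and inflammatory genes 6 rose and 0 fell (median 0.83), among them the adhesion molecule Vcam1 (2.29 ± 0.48, adjusted p = 0.00387) and the TWEAK receptor Tnfrsf12a (1.65 ± 0.42, adjusted p = 0.0133). Of 23 acute-phase genes 3 rose (Lcn2, Apcs, which encodes serum amyloid P, and the metalloreductase Steap4), 0 fell and the median was 0.46. Without flox liver 2 these 4 counts were 1, 2, 2 and 1, and within set A 3, 2, 0 and 1.

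Matrix genes and endothelial genes passed in few members. Of 32 matrix and stellate cell genes 1 rose, the galectin Lgals1 (1.86 ± 0.60, adjusted p = 0.0437, limma), although 29 differences were positive and the median was 0.75. The list median was 1.73 in surrounding liver 2 and 1.74 in surrounding liver 5, against 0.24 to 0.50 in the other 5. Of 26 genes on the endothelial list 1 rose, the C-type lectin Clec1b. It ran from 7.45 through 7.68 to 7.84 in surrounding livers, against 6.45 to 6.88 in flox livers (1.06 ± 0.15, adjusted p = 7.19e-05, limma). None of the 5 defining endothelial markers passed, Pecam1, Cdh5 and Stab2 among them. The rise of Clec1b is therefore that of a single gene and is not read as one of endothelial cells. Which cells carried it was not tested. Of 29 epithelial junction and actin cytoskeleton genes 8 rose and 1 fell (median 0.81). The calcium-binding protein S100a11 ran from 11.01 through 11.60 to 13.70, against 9.53, 7.96 and 9.14 (3.15 ± 0.49, adjusted p = 0.000227), and the membrane-binding annexin Anxa2 rose by 1.72 ± 0.39 (adjusted p = 0.00667). With flox liver 2 left out, the count of rises on this list was 2, and on the matrix list 0; within set A both were 0.

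**Figure D3:**
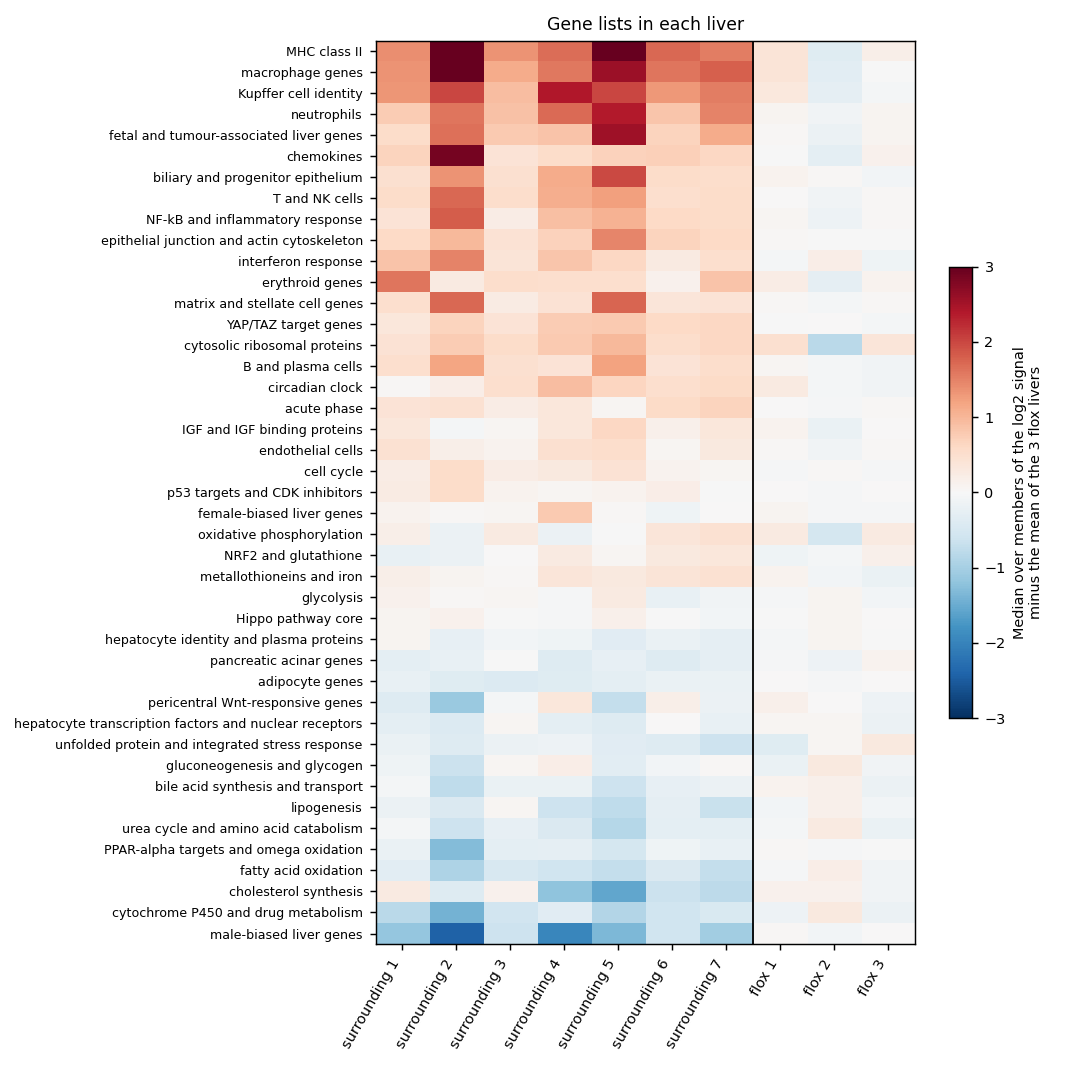
Median over the members of each gene list (rows) of the log2 signal minus the mean of the 3 flox livers, in each surrounding liver and flox liver (columns); red is above and blue below the flox mean. Surrounding livers 2 and 5 are the darkest columns for MHC class II (3.77 and 3.16) and macrophage genes (3.59 and 2.57), and male-biased liver genes are below the flox mean in all 7 surrounding livers.

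Growth gene lists are set beside the 10.6% of all genes tested that changed. The shares of the cell cycle, p53 and IGF lists are near it and are not read as a change of the list. Of 30 cell cycle genes 3 rose and 1 fell (median 0.26). Ccnd1 (cyclin D1), which drives exit from quiescence, ran from 10.50 through 11.16 to 13.02 in surrounding livers, against 8.88, 9.72 and 9.64 in flox livers (2.10 ± 0.50, adjusted p = 0.00911, limma). The origin licensing factor Cdc6 was at least 1.25-fold higher (adjusted p = 0.0162), the chromatin regulator Uhrf1 rose by 1.35 ± 0.42 (adjusted p = 0.0396), and the helicase subunit Mcm3 fell by 0.54 (SE 0.17, adjusted p = 0.0405). Against the wild-type livers Mcm3 had the opposite sign (0.015, adjusted p = 0.97). Of 15 p53 target and CDK inhibitor genes 2 rose: Gadd45b and the CDK4/6 inhibitor Cdkn2c, which ran from 7.75 to 8.89, was at 5.65 or 5.66 in all flox livers and was at least 2.72-fold higher (adjusted p = 0.0184). Igfbp7, a secreted IGF-binding protein, rose by 1.51 ± 0.36 (adjusted p = 0.00911) and the growth hormone receptor Ghr fell by 0.90 (SE 0.29, adjusted p = 0.0427), with 1 rise and 1 fall among 14 IGF-system genes. When flox liver 2 was dropped, the cell cycle list had 1 rise and 0 falls, and the p53 and IGF lists had 0 calls.

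Genes with male-biased expression in mouse liver were the list furthest below the median. Of 16 tested 5 fell and 0 rose, with a median of -1.18 and no positive difference. After Elovl3, Hsd3b5 and Cyp7b1, the complement regulator Susd4 ran from 7.11 through 9.40 to 10.08 in surrounding livers, against 11.43, 10.77 and 10.95 in flox livers (-2.31 ± 0.57, adjusted p = 0.0107, limma). The count of falls was 4 without flox liver 2, 3 without surrounding livers 2 and 5 and 2 within set A. Female-biased genes had 1 rise, Cyp17a1 (2.09 ± 0.51, adjusted p = 0.00951), and 1 fall, Cyp2b13 (-1.65 ± 0.52, adjusted p = 0.0385), among 14, with a median of 0.24. Both genes overlapped between the groups, and neither passed without flox liver 2. Cyp2b13 stood at 6.00, 10.05 and 8.88 in flox livers and ran from 6.06 to 8.78 in surrounding livers. Xist, expressed from the inactive X of females, was above background on none of the 10 arrays, and the Y-linked gene Eif2s3y ran from 11.11 to 11.79 in surrounding livers and stood at 11.26, 11.79 and 11.36 in flox livers. The wild-type livers used as an alternative control stood apart for Eif2s3y, with a mean of 6.85 (n = 2), and Sav1 tumours averaged 9.63 ± 1.54 (SD, n = 11). The Y-linked genes Uty and Kdm5d averaged 7.16 and 7.91 in surrounding livers and 7.47 and 7.95 in the wild-type livers.

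In the lists of hepatic metabolism single genes fell, beside the 5.49% of all genes tested that fell. The PPAR-alpha, cholesterol, urea cycle, gluconeogenesis and glycolysis lists had a single fall each. Such a share is near that of all genes and is not read as a fall of the list. Of 25 cytochrome P450 and drug metabolism genes 5 fell and 0 rose (median -0.68). Cyp2d22 ran from 12.68 through 12.98 to 13.15 in surrounding livers, against 13.64, 14.88 and 14.25 in flox livers (-1.33 ± 0.29, adjusted p = 0.0052), and Cyp4v3, a fatty acid hydroxylase, fell by 1.04 (SE 0.24, adjusted p = 0.007, limma). Cyp2c55 fell by 2.12 (SE 0.40, adjusted p = 0.00148) with overlap. Of 20 fatty acid oxidation genes 3 fell and 0 rose (median -0.52): the peroxisomal thiolase Acaa1b (-1.64 ± 0.35), the mitochondrial carnitine palmitoyltransferase Cpt2 (-1.08 ± 0.22) and the carnitine carrier Slc25a20 (-0.78 ± 0.25). Of 15 PPAR-alpha targets the lipid droplet protein Plin2 fell (-1.59 ± 0.37, adjusted p = 0.00769). Without flox liver 2 the counts of falls were 1, 1 and 0.

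Synthetic pathways are set beside the same 5.49% of all genes. Of 22 lipogenesis genes 4 fell and 0 rose (median -0.42): Elovl3, the pyruvate kinase Pklr, the acyltransferase Gpam and the glucose-responsive factor Mlxipl (ChREBP), which ran from 9.26 through 10.25 to 10.44 in surrounding livers, against 11.04, 11.18 and 11.10 in flox livers (-0.97 ± 0.31, adjusted p = 0.0458, limma). Of 21 bile acid genes 3 fell: Cyp7b1, the steroid dehydrogenase Hsd3b7 (-1.19 ± 0.31) and the racemase Amacr (-0.49 ± 0.13). Of 14 cholesterol synthesis genes the desaturase Sc5d fell (-1.40 ± 0.30, adjusted p = 0.00448); the list median was -0.59. Single livers of set C lay between -0.64 and -1.57 and surrounding livers 1, 2 and 3 of set A at 0.27, -0.39 and 0.12, and with the set as a block the list median was 0.05. Of 24 urea cycle and amino acid genes Cbs, which makes cystathionine, fell (-1.29 ± 0.36, adjusted p = 0.0212), and of 13 gluconeogenesis and glycogen genes the glycogen phosphorylase Pygl (-0.84 ± 0.23, adjusted p = 0.0202). Of 16 hepatocyte transcription factors Foxa2 (-0.86 ± 0.21) and the nuclear receptor partner Rxra (-0.80 ± 0.26) fell. The medians of the bile acid, gluconeogenesis and transcription factor lists (-0.30, -0.30 and -0.28) became 0.06, 0.09 and 0.14 with median scaling, which raised the median of all genes to 0.21. When flox liver 2 was dropped, 1 lipogenesis and 1 bile acid gene fell, and 0 genes of the other 4 lists did. Of 18 glycolysis genes only Pklr fell, and of 16 pericentral genes 0 passed (median -0.27, and 0.02 with median scaling).

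Stress, metal and housekeeping lists completed the description. Mt1 and its neighbour Mt2 both rose, Mt2 from 7.59 through 9.75 to 10.63 in surrounding livers, against 7.12, 6.21 and 6.23 in flox livers (2.78 ± 0.68, adjusted p = 0.00999, limma), and were the only changed genes of 16 on the metallothionein and iron list. Of 22 NRF2 and glutathione genes Gpx4, the lipid peroxide reductase, rose (1.15 ± 0.24, adjusted p = 0.00379). Neither list had a call without flox liver 2. Of 21 unfolded protein response genes 4 fell and 0 rose (median -0.29, and 0.04 with median scaling): the endoplasmic reticulum chaperones and disulfide isomerases Pdia6, Pdia4 and Hyou1 and the degradation factor Edem1, at -0.86 to -1.12, with 0 without flox liver 2. Clock genes were mixed, with 2 rises (Per1 and Dbp) and 3 falls (Npas2, Hlf and Clock) among 16; Dbp was 12.66, 7.97 and 7.88 in the flox livers, and time of collection is not given. With flox liver 2 left out, there were 0 rises and 1 fall, and against the wild-type livers Npas2 had the opposite sign (0.13, adjusted p = 0.645). Of 17 ribosomal protein genes 7 rose and 0 fell (median 0.66), but 0 rose without flox liver 2, and none of 22 oxidative phosphorylation genes passed in either direction. Car1 (-1.99 ± 0.30, adjusted p = 0.000173) fell with Alas2 among 7 erythroid genes, and 0 rose, although the list median was positive (0.76). The elastase Cela1 (-1.95 ± 0.47) was the 1 fall among 6 genes on the pancreatic acinar list, and 3 of the 5 acinar markers were not tested. On this list Ctrb1 and Cpb1 were above background on 0 of 3 flox arrays, Cela3b and Cela2a on 1, and Cela1 and Amy2a5 on 3. The fall of Cela1 is thus that of a single gene. Adipoq passed as the 1 fall among 5 adipocyte genes (-0.47 log2 units), but it was above background on 1 of 7 surrounding and 1 of 3 flox arrays, so this difference lies within background signal.

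The 7 surrounding livers also varied among themselves. The median SD over genes was 0.26 in surrounding livers (n = 7) and 0.22 in flox livers (n = 3), and 236 and 183 genes had an SD above 1. Relative to the flox mean, 435 genes stood at least 4-fold higher in surrounding liver 2 and 380 in surrounding liver 5, against 51, 61, 217, 108 and 153 in livers 1, 3, 4, 6 and 7. In surrounding liver 2, 164 genes lay at least 1 log2 unit above all other 6, led by the interferon-gamma-induced chemokine Cxcl9 (13.53, against 8.49 to 9.44 in the other 6, named after its values were seen), and 95 did so in surrounding liver 5, led by the fetal growth factor Igf2 (13.91, against 7.92 to 9.36). The other 5 livers had 2 to 31 such genes.

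**Figure D4:**
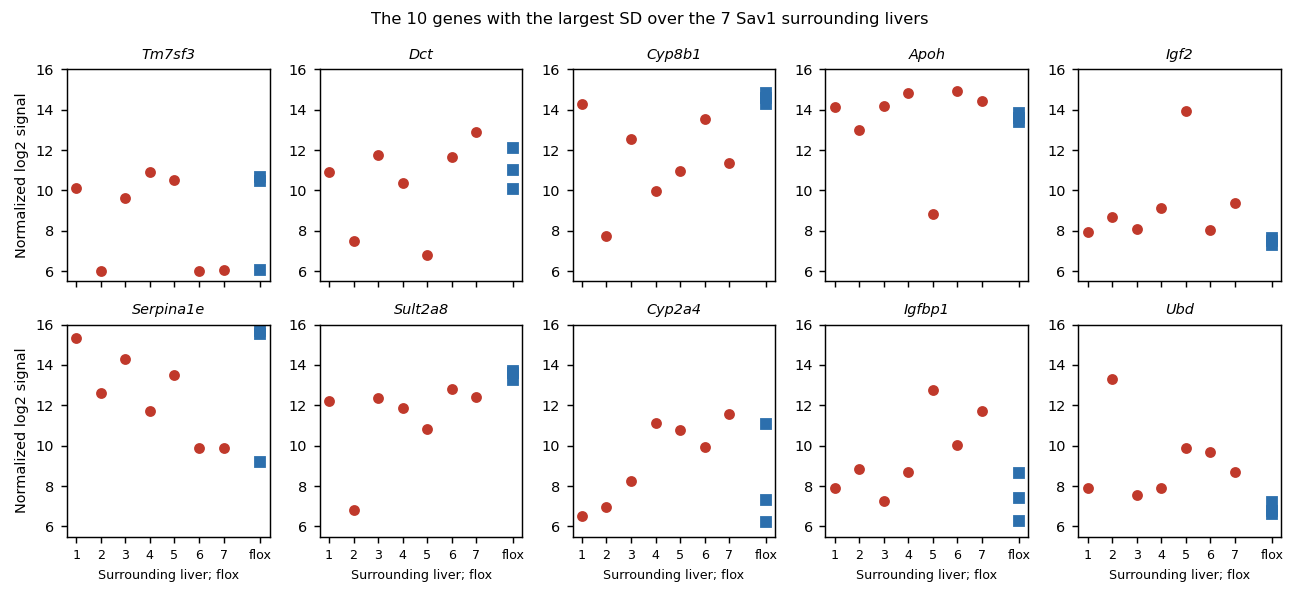
Normalized log2 signal (vertical axis) of the 10 genes with the largest SD over the 7 surrounding livers (circles, by liver number) and in the 3 flox livers (squares). Single livers stand apart, such as surrounding liver 5 for Igf2 (13.91) and Apoh (8.85) and surrounding liver 2 for Ubd (13.30) and Sult2a8 (6.82).

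None of the 10 most variable genes passed the test against flox liver. Tm7sf3 and the serpin Serpina1e were also split among the flox livers: Tm7sf3 stood at 6.03, 6.03 and 6.06 in surrounding livers 2, 6 and 7 and at 9.64 to 10.89 in the others, and at 6.08, 10.64 and 10.48 in flox livers. Serpina1e was 9.90 to 15.33 in surrounding livers and 9.18, 15.65 and 15.54 in flox livers. Cyp8b1, the hydroxylase that makes cholic acid, ran from 7.77 in surrounding liver 2 to 14.30 in surrounding liver 1, against 14.27, 14.82 and 14.57 in flox livers (-3.06 ± 1.03, adjusted p = 0.0543, limma). Igfbp1, a stress- and fasting-induced IGF-binding protein, ran from 7.28 to 12.74, against 6.29 to 8.67, and Dct, Apoh, Igf2, Sult2a8, Cyp2a4 and Ubd had adjusted p of 0.107 to 0.952. The 4 surrounding livers of set C against the 3 of set A differed at 6 genes (0.0428%). Colec12, Fabp7, Tfec and Prep were higher (0.0285%) and Sqle and Copz1 lower (0.0143%), and the count was 0 to 6 when each liver was left out in turn. Sqle, squalene epoxidase of cholesterol synthesis, ran from 11.18 to 11.97 in set C and from 13.32 to 13.39 in set A. No source used here says what the sets stand for.

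Tumours of the same line place the surrounding livers between normal liver and cancer for some genes and apart from both for others. Sav1 tumours differed from surrounding liver at 1803 genes (12.9%), 985 higher (7.03%) and 818 lower (5.84%), and both comparisons share the 7 surrounding livers. Gpc3 and Espn (espin, an actin-bundling protein) stood in the middle: Gpc3 averaged 6.84 ± 0.13 in flox livers, 9.25 ± 1.12 in surrounding livers and 11.98 ± 1.02 in tumours (SD, n = 3, 7 and 11), and Espn 6.73 ± 0.43, 8.84 ± 1.08 and 11.71 ± 0.60. Both were higher in tumours than in surrounding liver, by 2.73 ± 0.40 (adjusted p = 3.1e-05) and 2.88 ± 0.44 (adjusted p = 6.8e-05, limma, SE). Hsd3b5 was already low in surrounding livers, and its further difference in tumours, -1.05 ± 0.59, did not pass (adjusted p = 0.26). Spink1 and Lcn2 differed between tumours and surrounding liver by 1.57 ± 0.72 and 0.33 ± 0.48 (adjusted p 0.16 and 0.72).

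Several Kupffer cell genes had their highest group mean in surrounding liver. Cd163 averaged 8.87 ± 0.91 in flox livers, 11.16 ± 0.28 in surrounding livers and 6.76 ± 0.39 in tumours. Clec4f averaged 10.00 ± 0.26, 11.63 ± 0.35 and 7.49 ± 0.96, and Vsig4 11.01 ± 0.32, 12.96 ± 0.60 and 8.70 ± 1.36. In tumours against surrounding liver Cd163 fell by 4.39 log2 units (SE 0.29, adjusted p = 5.6e-11), and 7 of the 8 tested Kupffer genes fell there (median -2.93), while 2 of 17 macrophage genes rose, 0 fell and their median was 0.24. Fcna (ficolin A), a lectin of macrophages, averaged 11.32, 13.05 and 8.63. Cyp2f2, a periportal P450, was at 12.35 to 15.40 in surrounding livers and 15.00 to 15.41 in flox livers (-0.72 ± 1.14, adjusted p = 0.712), and fell by 5.49 in tumours against surrounding liver (SE 0.80, adjusted p = 3.1e-05). P450 genes fell in 14 of 25 members in tumours against surrounding liver, where 5 had fallen in surrounding against flox liver, and cell cycle genes rose in 15 of 30, where 3 had risen. Sdcbp2, Fgfbp1 and Tceal5 were among the 5 largest rises of tumours and did not pass in surrounding against flox liver (adjusted p 0.373, 0.739 and 0.532).

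**Figure D5:**
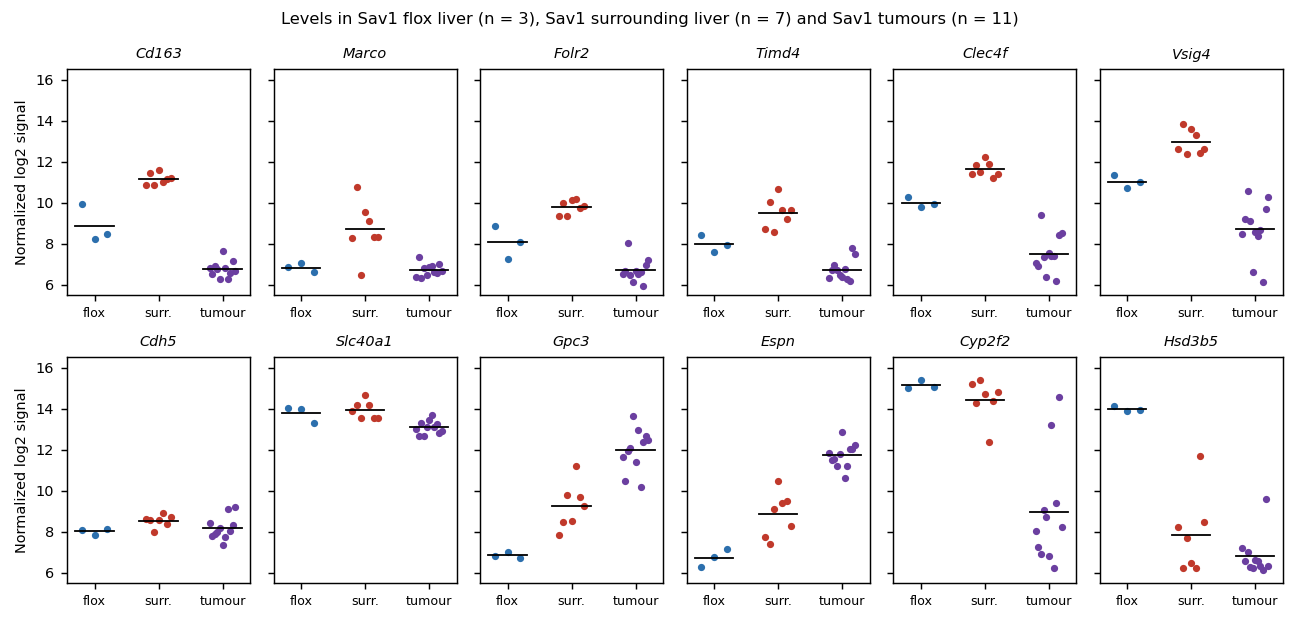
Normalized log2 signal (vertical axis) of Kupffer cell genes and 4 further genes in Sav1 flox liver (n = 3), Sav1 surrounding liver (n = 7) and Sav1 tumours (n = 11); points are arrays and lines are group means. Cd163 has its highest mean in surrounding liver (11.16), the Gpc3 means increase from left to right, and Hsd3b5 is lower in both knockout tissues than in flox liver.

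Surrounding liver of the other knockout line was compared next, and the count of differences depended on the fit. Sav1 against Mst1/2 surrounding liver (n = 7 and 3) differed at 133 genes (0.949%), 67 higher and 66 lower (0.478% and 0.471%), and all 3 Mst1/2 arrays lay in set B, which holds no Sav1 surrounding liver, so set and line cannot be told apart from these arrays. The count was 29, 21 and 21 without each Mst1/2 liver in turn, 78 without surrounding liver 4 and 73 without surrounding liver 7. With the replicate number as a block, taken as a pairing from the deviations of same-numbered samples alone, 861 genes passed (341 higher and 520 lower). The 2 lines cannot share animals, so this block stands for no known pairing. With the array set as a block, which is tied to set B only through the Sav1 tumours that lie in all 3 sets, the count was 744. The p-values of single genes below are without the replicate block; the 5 largest differences in each direction, all named here, passed with it too. Nlrp12, a sensor protein of the NLR family, was 7.83 to 11.70 in Sav1 surrounding livers and averaged 5.94 ± 0.07 in Mst1/2 surrounding livers (SD, n = 3), a difference of 3.67 (adjusted p = 2.9e-05, limma); it averaged 10.77 ± 0.93 in Sav1 flox livers. Gpc3 (-2.59, adjusted p = 0.021) and Sox4 (-2.21, adjusted p = 0.007) were lower than in Mst1/2 surrounding liver, where they averaged 11.84 ± 0.69 and 10.48 ± 0.04. The binding protein Igfbp2, the apolipoproteins Apoa4 and Apoc2 and the deadenylase Noct were higher by 2.90 to 3.55. Ptgds, which makes prostaglandin D, the matrix protein Spon2 and the transcriptional regulator Tsc22d1 were lower, at -2.65 to -3.32. The differences of Lcn2 and H2-Aa between the 2 kinds of surrounding liver were 0.91 and -0.15 (adjusted p 0.63 and 0.96, not refitted with the block).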

How the data were processed

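Linear intensity values per probe were deposited for all 33 arrays without detection p-values, from BeadStudio per the submitters' processing notes (version not given in the sources used here). The authors also deposited a matrix of log2 values that equals quantile-normalized signals to within 0.005 with no background correction. RNA was labelled as biotinylated cRNA, per the labels' protocols. Here signals were corrected with normexp (offset 50), quantile normalized and taken to log2. To call background, the signals below each array's mode were mirrored about it, and probes over percentile 99 of that distribution counted as above it. Probes with 1 gene symbol and above background on at least 3 arrays were kept (23276 probes), and each gene took its brightest kept probe, giving 14018 genes; 5930 had more than 1 kept probe, and 10 genes had probes called in opposite directions. Levels were compared with limma 3.58.1 in R 4.3.3, two-sided, in 1 fit over all 33 arrays with a mean per group and Benjamini-Hochberg adjustment. The residual spread of each gene was pooled over all groups, tumours included. An SE can therefore differ from the spread within the 2 groups compared. Clec4f had an SD of 0.35 in surrounding livers, 0.26 in flox livers and 0.96 in Sav1 tumours, with an SE of 0.68. Precision is also limited by how few arrays each group has.

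The 3 array sets come from clustering correlations over 12413 probes that passed background on no array. Replicate numbers of the labels were taken to pair samples only in Sav1 against Mst1/2 surrounding liver. There the deviations of all 3 same-numbered pairs correlated above 0.1 (0.183 to 0.338), but number 3 correlated higher with a different number (0.276). No label says that these samples are matched. They are of 2 knockout lines, so a shared number cannot mean the same animal, and the pairing rests on this measure alone. In Sav1 tumours against surrounding liver numbers 1, 2 and 3 correlated at 0.563, 0.691 and 0.596. Numbers 4 to 7 lay between 0.0694 and 0.29 there, and the main fit was unpaired. The 45 gene lists (779 of 890 entries tested) and members were chosen with earlier results of these data known. Genes named are the 10 largest rises and falls without overlap, the 4 largest that crossed the background in each direction, the 10 most variable, the 5 largest in each direction of the other comparisons, and at most 4 members with the smallest adjusted p of each list; where 5 members changed the fifth was added after its values were seen. Promoters and motifs came from RefSeq tables for GRCm38.p6. The steps were tested on simulated data. Alternatives were other normalizations, filters, probe rules, controls, blocks, weights and left-out arrays. Figures were drawn with matplotlib 3.10.9.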

Additional observations from a re-analysis of the deposited data

Results flagged for a closer look

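Among 150 named genes, 15 had 1 surrounding liver whose gap to the next liver was large relative to the range of all 7 (Dixon's criterion). Chance gives this in about 1 in 20 genes, a rate that cannot be set against the 15, since Igf2, Apoh, Sult2a8 and Ubd were among the 10 genes chosen for their spread over these livers. Surrounding liver 2 was the high one for Ifit2 (11.30, next 9.22), Tnfrsf12a (11.25, next 9.77) and Ubd (13.30, next 9.87), genes of interferon, TWEAK and ubiquitin-like signalling. The same liver was the low one for Cpt2 (11.82, next 12.56), Mlxipl (9.26, next 10.12) and Sult2a8 (6.82, next 10.81), genes of fat oxidation, glucose sensing and sulfation.

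Surrounding liver 5 was high for Igf2 (13.91, next 9.36) and Fgfbp1 (8.11, next 6.94) and low for Apoh (8.85, next 12.99), Cyp2f2 (12.35, next 14.25), Cyp4v3 (12.22, next 12.70) and Mt1 (14.87, next 15.44). Surrounding liver 4 was high for Cyp2b13 (8.78, next 6.58). Surrounding liver 6 was high for Hsd3b5 (11.69, next 8.47) and Sdcbp2 (9.00, next 7.72).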

How the results depend on the processing

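The count of changed genes in surrounding against flox liver was 1482. It kept within 1.5 times under the authors' normalization (1460), an offset of 16, no filter or a stricter one, the mean of probes and array weights. Median scaling gave 1457, of which 715 were shared. A fit of only the groups compared gave 1038, of which 822 were shared. Wild-type controls gave 1709, of which 656 were shared, while 120 of the 1482 genes had the opposite sign. These counts also kept within 1.5 times. The count was 562 with the array set as a block, 61 within set A and 2696 with flox and wild-type livers as control. It was 627 without surrounding livers 2 and 5 (chosen after seeing the data), and ran from 326 to 1803 when each array was left out. With a replicate block it was 0 (2205 genes at an unadjusted p below 0.05); same-numbered samples did not deviate together (-0.0448 to 0.0153), so the numbers are no pairing. In tumours against surrounding liver the replicate block gave 1367, and 2 of 7 numbers correlated under 0.1. There the count was 1047 with only the groups compared, 6 within set A, 814 within set C and 1291 to 2253 with arrays left out, and 68.6% of calls were higher with median scaling against 54.6%. In Sav1 against Mst1/2 surrounding liver it was 82 with median scaling, 360 with only the groups compared, 2531 with array weights, 744 with the set as a block, 861 with the replicate block and 21 to 175 with arrays left out. Set C against set A gave 698 with median scaling, 11 with an offset of 16, 2 with the mean of probes, 574 with only the groups compared, 498 with array weights and 0 to 6 with arrays left out (1986 genes at an unadjusted p below 0.05). The cause of these shifts was not tested.

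Of 118 named genes that changed in the first comparison, 118 passed under the authors' normalization, 92 with median scaling, 70 with the set as a block, 20 within set A, 74 without surrounding livers 2 and 5 and 46 without flox liver 2, all in the same direction. Against wild-type livers 73 passed and 5 had the opposite sign: Camk2b 0.65, Alas2 0.34, Tacc2 0.12, Mcm3 0.015 and Npas2 0.13.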

Other observations

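Genes in which a single surrounding liver stood apart were listed after their values were seen. In surrounding liver 2 the major urinary protein Mup2 was 12.40, against 15.49 to 15.82 in the other 6 and 15.74 to 15.78 in flox livers, and the chemokines Cxcl10 (10.80) and Ccl2 (10.98) were at most 7.33 and 8.07 in the other 6. In surrounding liver 1 the iron hormone gene Hamp was 10.32, against 14.48 to 15.31 in the other 6. In surrounding liver 5 the matrix genes Dpt (10.85) and Fbln1 (11.01) were at most 8.27 and 8.69 in the others. In surrounding liver 4 Cyp2b9 was 12.30, against 6.81 to 8.54 in the other 6 and 6.47, 10.84 and 10.74 in flox livers. In surrounding liver 7 the acute-phase gene Saa2 was 10.67, against 6.98 to 8.90 in the others.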
